A study of Oryza sativa with 12 samples.

Results

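The interaction of genotype and temperature asks, gene by gene, whether heat stress changed a transcript by a different amount in *ntl3-1* rice than in wild type (WT). It was computed as the log2FC of 45 ºC over 29 ºC in *ntl3-1* minus the same log2FC in WT, on log2(FPKM + 0.1), where FPKM counts the fragments of a gene relative to transcript length and sequencing depth. All 12 of the 12 libraries of the study entered it, and 31681 of the 55986 genes listed had an FPKM above 0 in at least 3 libraries and were tested. The 4 groups, of 3 libraries each, were *ntl3-1* seedlings moved to 45 ºC for 3 h, *ntl3-1* seedlings kept at 29 ºC, WT seedlings moved to 45 ºC for 3 h and WT seedlings kept at 29 ºC. All were whole seedlings of the cultivar Nipponbare, sampled 8 days after germination. *ntl3-1* carries a CRISPR-Cas9 edit of OsNTL3 (LOC_Os01g15640) that is predicted to truncate its protein, and it was the 1 edited line sequenced. The sample labels name the edited gene, while the allele and the temperatures come from the study's text, and the sequencer model differs between the deposited description and that text.

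OsNTL3 is a NAC transcription factor held in the membrane, which moves to the nucleus under heat and endoplasmic reticulum (ER) stress. Misfolded proteins in the ER set off the unfolded protein response, in which the rice factor OsbZIP74 becomes active after its mRNA is spliced by OsIRE1, and chaperones and folding enzymes of the ER are among the genes it raises. Misfolded proteins in the cytosol act through heat shock factors and the heat shock proteins they switch on. A changed heat response in a mutant can arise at either temperature, because the interaction of a gene equals its difference between *ntl3-1* and WT at 45 ºC minus that difference at 29 ºC.

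The FPKM of a library summed to between 1153023 and 1369236 at 45 ºC and to between 610880 and 698971 at 29 ºC. In genes with low values, 1 read was worth 1.68 to 2.03 times as many FPKM in the libraries at 45 ºC as in the first WT library at 29 ºC, and 0.876 to 1.08 times as many in the libraries at 29 ºC. The absolute depth is unknown. Replicates of a group were correlated across genes with r from 0.967 to 0.98. Nothing in the labels says that replicates were separate cultures, so p-values measure the spread between these libraries. In bulk RNA of whole seedlings, fewer cells of a type and less RNA per cell cannot be told apart. The sum of 8 shoot marker transcripts of photosynthesis ran from 41400 to 52100 FPKM (median 50200) in *ntl3-1* at 45 ºC and from 43900 to 53800 (median 44300) in *ntl3-1* at 29 ºC, against 28400 to 42900 (median 35200) in WT at 45 ºC and 29800 to 37400 (median 32800) in WT at 29 ºC. The sum of 7 root markers was 121 to 164 FPKM in *ntl3-1* at 45 ºC and 516 to 813 in *ntl3-1* at 29 ºC, against 129 to 256 in WT at 45 ºC and 712 to 905 in WT at 29 ºC. No marker was at 0 in all libraries of a group. Values above 0 do not give the share of each organ, which was not measured. The shoot sum was higher in every *ntl3-1* library than in every WT library at 29 ºC, and its part in the differences at 29 ºC was not tested.

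Heat stress changed 76 genes by a different amount in *ntl3-1* than in WT, the threshold being an adjusted p of 0.05 (limma, Benjamini-Hochberg over all genes tested). These are 0.24% of the genes tested. In 47 of them (0.148%) the log2FC was smaller in *ntl3-1*, and in 29 (0.0915%) it was larger. At an unadjusted p of at most 0.05 the counts were 1403 and 1012. These counts include 28 genes above 0 in the 3 libraries of 1 group only, which entered the test through the group where they are high and have no spread in the other 9 libraries, so their calls are no support. Without them 48 genes remained, 37 with a smaller and 11 with a larger log2FC in *ntl3-1*. Some of the 48, such as LOC_Os12g44280, LOC_Os06g20930 and LOC_Os01g15250, are listed at 0 in every library of more than 1 group. The same limit holds for them. Of the 76 genes, 32 were above 0 in all libraries. Across all genes tested the interaction had a median of -0.01. The responses of single heat-stressed libraries did not overlap between the genotypes in 76 of the 76 genes, against 21.3% of all genes tested, a property that the test itself favours.

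A heat response had to reach an adjusted p of 0.05 and a size of 1 in log2FC to be called. Up-regulation passed for 12.9% of the genes tested in *ntl3-1* and 13.2% in WT, and down-regulation for 11.3% in *ntl3-1* and 11.8% in WT. Of the 76 genes, 20 lost the response, being called in WT and not in *ntl3-1*. A further 29 gained one, 17 of them up and 12 down in *ntl3-1*. Another 5 genes reversed direction, 12 responded in both genotypes by less in *ntl3-1* (reduced), 3 by more (enhanced), and 7 were called in neither genotype. Without the 28 genes above 0 in 1 group only, 11 lost, 14 gained, 5 reversed, 12 reduced, 3 enhanced and 3 in neither class were left. The 5 reversed include LOC_Os01g15250, with a mean of 0.06 FPKM, listed at 0 in *ntl3-1* at 29 ºC and in WT at 45 ºC. Adding 1 FPKM instead of 0.1 left no gene called as reversed, while 12 lost and 18 gained the response.

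**Figure D1:**
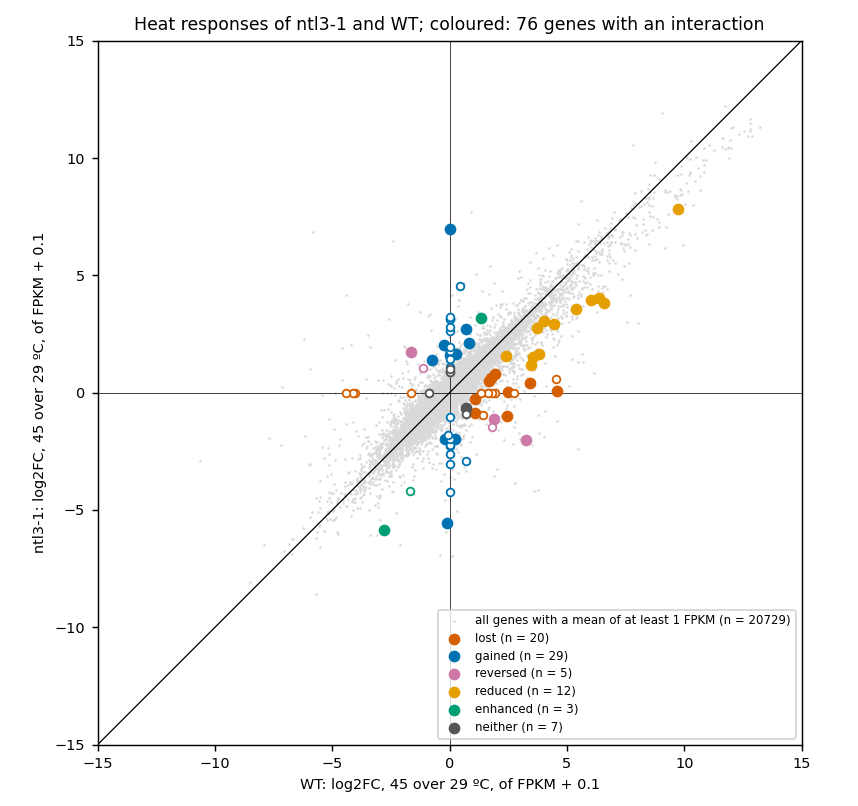
Heat response of *ntl3-1* (vertical axis) against that of WT (horizontal axis), each as the log2FC of 45 ºC over 29 ºC on log2(FPKM + 0.1), means of 3 libraries a group. Grey points are the 20729 genes with a mean of at least 1 FPKM, coloured points are the 76 genes with an interaction by response class (filled, mean of at least 1 FPKM, 37 genes; open, mean under 1 FPKM, 39 genes), and the diagonal marks equal responses. Reduced genes lie below the diagonal at the upper right, and lost and gained genes lie near the horizontal and vertical zero lines.

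More of these genes differed between the genotypes at 45 ºC than at 29 ºC. With the threshold at an adjusted p of 0.05, *ntl3-1* differed from WT at 45 ºC and not at 29 ºC in 41 of the 76 genes, 23 being lower and 18 higher in *ntl3-1*. At 29 ºC alone it differed in 28 genes, 22 being higher and 6 lower in *ntl3-1*, and at both temperatures in 7. Without the 28 genes above 0 in 1 group only, the counts were 24 at 45 ºC alone, 17 at 29 ºC alone and 7 at both. Of all genes tested, 1.18% passed as higher in *ntl3-1* at 45 ºC and 0.432% as lower, and at 29 ºC the shares were 2.35% and 0.398%. Since the genes were chosen by the interaction, which is the difference of these differences, the classes describe them and carry no test of their own. A gene placed at 1 temperature alone may still differ by less at the other.

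**Figure D2:**
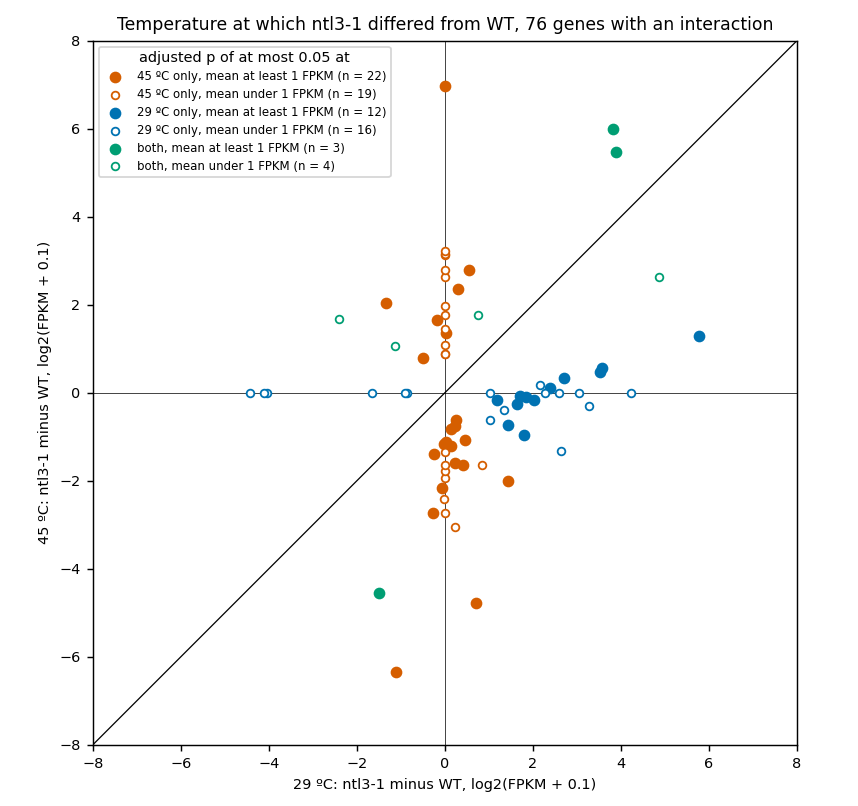
Difference between *ntl3-1* and WT at 45 ºC (vertical axis) and at 29 ºC (horizontal axis), on log2(FPKM + 0.1), for the 76 genes with an interaction. Colours give the temperature at which the difference passed an adjusted p of 0.05, filled points are genes with a mean of at least 1 FPKM, and genes on the diagonal would have no interaction. The 22 filled points of 45 ºC only spread up and down, with differences at 29 ºC between -1.35 and 1.44, and the 12 filled points of 29 ºC only lie on the right, higher in *ntl3-1*.

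Level divided the genes too. A mean of 1 FPKM or more over the 12 libraries was reached by 37 of the 76, which are 0.178% of the 20729 genes at that level, against 39 or 0.356% of the 10952 genes below it. The 37 genes are described one by one here. Their interaction was negative in 28 and positive in 9. Among them 9 lost, 10 gained and 3 reversed the heat response, 12 had it reduced, 2 had it enhanced and 1 was called in neither genotype. The smallest interaction called among them was 0.87 in size and the median standard error over all genes at that level was 0.24. Of the 37 calls, 15 were kept under each of the other constants, filters, scalings, variance models and the replicate block that could be run, and 22 were lost under 1 or more, 11 of them with a constant of 1 FPKM. By temperature, 15 were lower and 7 were higher in *ntl3-1* at 45 ºC only, 12 were higher at 29 ºC only, and 3 differed at both.

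At 45 ºC only, 15 genes were lower in *ntl3-1* than in WT, and in all 15 no *ntl3-1* library reached a WT library there, against 14% of all genes tested without overlap at 45 ºC in either direction. These genes were chosen by that difference, which favours a lack of overlap, so the comparison is no support. WT up-regulated 14 of them. Their difference at 45 ºC ran from -6.36 to -0.62 on the log2 scale (median -1.39), and at 29 ºC from -1.12 to 1.44 (median 0.14). *ntl3-1* still up-regulated 7 of the 15, each by less than WT.

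LOC_Os01g43750, on chromosome 1, is annotated as a cytochrome P450 72A1, one of the haem enzymes that oxidise small molecules. It was measured at 0.113, 0.0734 and 0.138 FPKM in *ntl3-1* at 45 ºC and at 0.635, 0.560 and 1.06 in *ntl3-1* at 29 ºC, against 10.7, 20.9 and 21.1 in WT at 45 ºC and 1.03, 1.96 and 2.39 in WT at 29 ºC. The transcript fell with heat stress in *ntl3-1* and rose in WT, and at 29 ºC the genotypes overlapped. Its interaction of -5.24 (SE 0.52, limma adjusted p = 0.0023) was called in each of the 12 fits that left out 1 library, with values from -5.56 to -4.90, and was -3.36 with a constant of 1 FPKM. The mean at 45 ºC in *ntl3-1* was 0.00616 times that in WT. LOC_Os01g43720, a near neighbour by its locus number, followed the same course at a lower level, at 0.0666, 0.0323 and 0 FPKM in *ntl3-1* at 45 ºC and 0.192, 0.158 and 0.526 in *ntl3-1* at 29 ºC, against 0.861, 0.983 and 1.10 in WT at 45 ºC and 0.162, 0.174 and 0.314 in WT at 29 ºC. Its interaction was -3.27 (SE 0.49, limma adjusted p = 0.0323), which moved to -1.02 with a constant of 1 FPKM and to -5.23 with 0.01 FPKM (adjusted p = 0.0846). That call was kept in 2 of 12 fits without 1 library, those without *ntl3-1* replicate 2 or 3 at 29 ºC, and the adjusted p was highest without WT replicate 2 at 29 ºC (0.112). No interaction was called in the loci around them. LOC_Os01g43700 had an interaction of 0.43 (limma adjusted p = 0.78), LOC_Os01g43710 of -0.49 (0.349), LOC_Os01g43740 of -0.21 (0.983) and LOC_Os01g43760 of -0.22 (0.961). LOC_Os01g43740 had a mean of 0.061 FPKM, too low to show a response either way. The study's methods name RSEM, while the header of the deposited values has the form that Cuffnorm writes. Reads that match several genes can be divided between them by estimation, so levels of genes with similar sequence are uncertain. Whether these loci have similar sequences was not checked. LOC_Os01g43720 and its neighbours were chosen for mention after their values were seen.

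LOC_Os01g53350, on chromosome 1, lost its response altogether. It stood at 5.15, 5.68 and 6.30 FPKM in *ntl3-1* at 45 ºC and at 7.06, 4.45 and 5.49 in *ntl3-1* at 29 ºC, against 31.7, 52.5 and 34.2 in WT at 45 ºC and 5.42, 7.45 and 7.54 in WT at 29 ºC. Heat stress left the *ntl3-1* level within the range of both genotypes at 29 ºC, while every heat-stressed WT library stood far above it. The log2FC was 0.03 in *ntl3-1* and 2.50 in WT, an interaction of -2.47 (SE 0.31, limma adjusted p = 0.0127), called in 12 of 12 fits without 1 library. LOC_Os11g02290, on chromosome 11, had 1.48, 0.681 and 1.09 FPKM in *ntl3-1* at 45 ºC and 2.06, 1.68 and 2.95 in *ntl3-1* at 29 ºC, against 4.38, 3.91 and 5.20 in WT at 45 ºC and 0.991, 0.384 and 1.02 in WT at 29 ºC. The genotypes did not overlap at either temperature, with *ntl3-1* lower at 45 ºC and higher at 29 ºC, although the difference of 1.44 at 29 ºC did not pass (adjusted p = 0.0763). Its log2FC was -0.999 in *ntl3-1* and 2.44 in WT, so it missed the reversed class by the fold threshold alone. Its interaction was -3.44 (SE 0.52, limma adjusted p = 0.034), and it was called without *ntl3-1* replicate 1 at 45 ºC and in none of the other 11 fits without 1 library (adjusted p up to 0.1 without *ntl3-1* replicate 3 at 29 ºC). Its interaction was -2.26 with a constant of 1 FPKM.

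The other 4 genes that lost the response at 45 ºC had small, even changes and include a pair annotated for vesicle traffic. LOC_Os06g19620, on chromosome 6, is annotated as SFT2, a membrane protein known in budding yeast for transport between endosomes and the Golgi. It had 8.47, 9.99 and 9.19 FPKM in *ntl3-1* at 45 ºC and 9.37, 13.1 and 10.8 in *ntl3-1* at 29 ºC, against 22.6, 21.4 and 20.5 in WT at 45 ºC and 11.4, 9.13 and 9.75 in WT at 29 ºC. The WT libraries at 45 ºC stood above all the others, and its interaction was -1.35 (SE 0.18, limma adjusted p = 0.0183, called in 6 of 12 fits without 1 library and at most 0.0698 in the rest). LOC_Os05g44310, on chromosome 5, is annotated as a vesicle-fusing ATPase, the kind of enzyme that takes apart SNARE complexes after membranes have fused. Its values were 35.7, 34.8 and 40.1 FPKM in *ntl3-1* at 45 ºC and 22.7, 21.0 and 20.0 in *ntl3-1* at 29 ºC, against 77.1, 103 and 112 in WT at 45 ºC and 24.4, 27.4 and 24.5 in WT at 29 ºC. Both genotypes rose, *ntl3-1* by a log2FC of 0.79 (adjusted p = 0.000493) and WT by 1.92, so the loss here means that *ntl3-1* stayed under the fold threshold. Its interaction was -1.13 (SE 0.18, limma adjusted p = 0.0403).

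LOC_Os01g65986 and LOC_Os01g65310, both on chromosome 1, are annotated with a DUF803 domain, which in mammals is found in the NIPA magnesium transporters. LOC_Os01g65986 had 16.2, 14.9 and 15.4 FPKM in *ntl3-1* at 45 ºC and 10.7, 10.3 and 11.5 in *ntl3-1* at 29 ºC, against 27.6, 37.2 and 42.3 in WT at 45 ºC and 10.7, 11.1 and 11.3 in WT at 29 ºC. LOC_Os01g65310 had 11.3, 12.7 and 13.3 FPKM in *ntl3-1* at 45 ºC and 7.71, 7.84 and 8.21 in *ntl3-1* at 29 ºC, against 23.2, 28.4 and 30.4 in WT at 45 ºC and 7.90, 7.95 and 7.67 in WT at 29 ºC. In both genes the genotypes shared 1 level at 29 ºC, and heat stress raised *ntl3-1* by a log2FC of 0.51 and 0.64 and WT by 1.66 and 1.78. The interactions were -1.15 (SE 0.18, limma adjusted p = 0.0394) and -1.14 (SE 0.15, limma adjusted p = 0.0127). LOC_Os01g65310 lost its call without *ntl3-1* replicate 3, WT replicate 2 or WT replicate 3 at 29 ºC (adjusted p up to 0.0541), whereas LOC_Os01g65986 and LOC_Os05g44310 kept theirs only without WT replicate 1 at 45 ºC (up to 0.133 and 0.129 in the other fits).

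**Figure D3:**
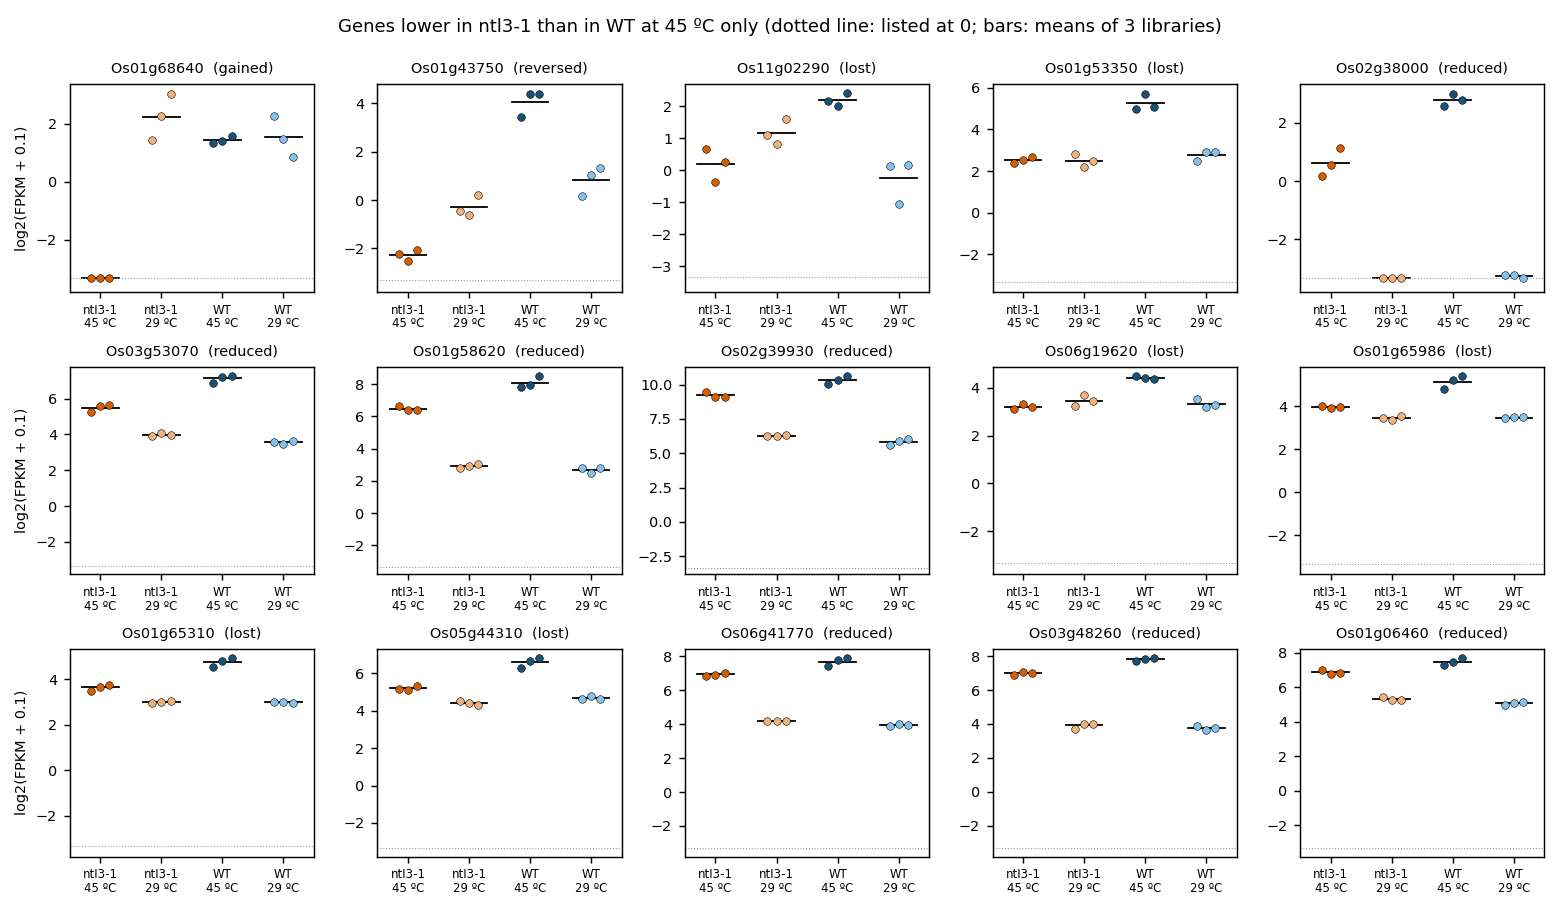
Level of the 15 genes that were lower in *ntl3-1* than in WT at 45 ºC only, as log2(FPKM + 0.1) per library, with *ntl3-1* at 45 and 29 ºC on the left and WT at 45 and 29 ºC on the right of each panel. Points are single libraries, short bars are means of 3 libraries, the dotted line marks a gene listed at 0, and panels run from the most negative interaction (-5.47) to the least (-0.87). In 14 of the 15 panels the WT points at 45 ºC stand highest of the 4 groups, and in that of Os01g68640 the *ntl3-1* points at 45 ºC lie on the dotted line.

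Genes whose response was reduced at 45 ºC include abundant transcripts. LOC_Os03g53070, on chromosome 3, had 37.7, 48.1 and 49.5 FPKM in *ntl3-1* at 45 ºC and 15, 16.6 and 15.3 in *ntl3-1* at 29 ºC, against 119, 149 and 153 in WT at 45 ºC and 11.9, 11.1 and 12.5 in WT at 29 ºC. It rose by a log2FC of 1.51 in *ntl3-1* and 3.55 in WT, and its interaction of -2.04 (SE 0.17, limma adjusted p = 0.000784) was called in 12 of 12 fits without 1 library. LOC_Os01g58620, on chromosome 1, had 100, 85.5 and 83.3 FPKM in *ntl3-1* at 45 ºC and 6.96, 7.58 and 8.05 in *ntl3-1* at 29 ºC, against 223, 246 and 364 in WT at 45 ºC and 6.88, 5.59 and 6.80 in WT at 29 ºC. The *ntl3-1* level at 45 ºC was 0.323 times that of WT on average. Its interaction was -1.83 (SE 0.24, limma adjusted p = 0.0127), called in 9 of 12 fits and at most 0.0541 without *ntl3-1* replicate 2 at 45 ºC, *ntl3-1* replicate 3 at 29 ºC or WT replicate 2 at 29 ºC. LOC_Os02g39930, on chromosome 2, had 709, 544 and 553 FPKM in *ntl3-1* at 45 ºC and 77.5, 75.5 and 81.3 in *ntl3-1* at 29 ºC, against 1040, 1260 and 1560 in WT at 45 ºC and 48.6, 60.5 and 64.2 in WT at 29 ºC. Here *ntl3-1* was lower than WT at 45 ºC (log2 difference -1.09, adjusted p = 0.00758) and its libraries also lay above WT at 29 ºC, where the difference of 0.44 did not pass (adjusted p = 0.247). Its interaction was -1.53 (SE 0.23, limma adjusted p = 0.0346), called without replicate 1 of either genotype at 45 ºC and in none of the other 10 fits (up to 0.116).

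OsbZIP74 (LOC_Os06g41770, on chromosome 6), the transcription factor of the unfolded protein response, belongs to this group. Its libraries held 116, 120 and 130 FPKM in *ntl3-1* at 45 ºC and 18.1, 17.8 and 18.4 in *ntl3-1* at 29 ºC, against 170, 219 and 234 in WT at 45 ºC and 14.6, 16.2 and 15.5 in WT at 29 ºC. The reduced response came with a lower level at 45 ºC (log2 difference -0.76, limma adjusted p = 0.00472), and the *ntl3-1* libraries at 29 ºC were above those of WT by 0.23, which did not pass (adjusted p = 0.391). LOC_Os03g48260, on chromosome 3, had nearly the same profile, with 116, 134 and 128 FPKM in *ntl3-1* at 45 ºC and 13, 16.1 and 16.1 in *ntl3-1* at 29 ºC, against 212, 228 and 232 in WT at 45 ºC and 14.8, 12.4 and 13.7 in WT at 29 ºC. Its interaction was -0.97 (SE 0.14, limma adjusted p = 0.0304), beside -0.98 (SE 0.15, 0.0351) for OsbZIP74. LOC_Os01g06460, on chromosome 1, encodes an uncharacterised Cys-rich protein and had the smallest interaction of the 37, -0.87 (SE 0.15, limma adjusted p = 0.0492). It was measured at 128, 111 and 115 FPKM in *ntl3-1* at 45 ºC and 43.0, 39.1 and 39.2 in *ntl3-1* at 29 ºC, against 160, 180 and 205 in WT at 45 ºC and 31.0, 34.7 and 36.2 in WT at 29 ºC. The *ntl3-1* libraries lay below WT at 45 ºC (log2 difference -0.62, adjusted p = 0.0133) and above WT at 29 ºC (0.25, adjusted p = 0.304). OsbZIP74 and LOC_Os01g06460 kept their calls only without WT replicate 1 at 45 ºC (up to 0.125 and 0.145 in the other fits), and LOC_Os03g48260 there and without *ntl3-1* replicate 1 at 29 ºC (up to 0.1).

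The last pair in the group lower at 45 ºC has values of 0, which in a table without counts can also be failed estimates: of 9735 genes with a median over 10 FPKM, 84 are at 0 in some library. LOC_Os01g68640, on chromosome 1, was listed at 0 in all 3 *ntl3-1* libraries at 45 ºC and had 2.59, 4.68 and 8.17 FPKM in *ntl3-1* at 29 ºC, against 2.44, 2.58 and 2.90 in WT at 45 ºC and 4.74, 2.69 and 1.73 in WT at 29 ºC. It was the 1 gene of the 37 that gained a down-regulation through its level at 45 ºC. LOC_Os02g38000, on chromosome 2, had 1.04, 1.36 and 2.09 FPKM in *ntl3-1* at 45 ºC and was listed at 0 in all 3 *ntl3-1* libraries at 29 ºC, against 5.80, 7.91 and 6.78 in WT at 45 ºC and 0.00701, 0.00618 and 0 in WT at 29 ºC. Both genotypes switched it on, *ntl3-1* to 0.219 times the level of WT. The fitted interactions, -5.47 (adjusted p = 0.00344) and -2.10 (0.0492), depend on the constant of 0.1 FPKM and are no folds. LOC_Os02g38000 kept its call only without *ntl3-1* replicate 3 at 45 ºC (up to 0.149 in the other fits), while LOC_Os01g68640 kept it in 12 of 12. With a constant of 1 FPKM LOC_Os01g68640 moved to -2.43 and lost its call (adjusted p = 0.0888), and with 0.01 FPKM it had -8.77 and LOC_Os02g38000 lost its call (0.439).

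At 29 ºC only, 12 genes of at least 1 FPKM differed between the genotypes, and all 12 were higher in *ntl3-1*. In all 12 every *ntl3-1* library at 29 ºC exceeded every WT library at 29 ºC, which 13.1% of all genes tested did, 25.7% being without overlap there in either direction. These genes were chosen by that difference, which favours a lack of overlap, so the shares are no support. Their difference at 29 ºC ran from 1.18 to 5.78 on the log2 scale (median 1.93) and at 45 ºC from -0.96 to 1.28 (median -0.09). At 45 ºC the libraries of both genotypes overlapped in 7 of the 12, *ntl3-1* was above WT in 3 and below it in 2. WT up-regulated 9 of these genes and *ntl3-1* 5.

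LOC_Os05g08910, on chromosome 5, was as high in *ntl3-1* without heat stress as with it. It had 84.4, 62.5 and 72.9 FPKM in *ntl3-1* at 45 ºC and 61.0, 69.3 and 77.0 in *ntl3-1* at 29 ºC, against 27.7, 18 and 53.9 in WT at 45 ºC and 0.891, 1.23 and 1.39 in WT at 29 ºC. The *ntl3-1* mean was 59 times that of WT at 29 ºC and 2.21 times that of WT at 45 ºC, where the log2 difference of 1.28 did not pass (adjusted p = 0.0936) although no library overlapped. Its interaction of -4.50 (SE 0.46, limma adjusted p = 0.00237) was called in 12 of 12 fits without 1 library. LOC_Os01g72900, on chromosome 1, also kept its call in all 12. It had 106, 79.6 and 76.2 FPKM in *ntl3-1* at 45 ºC and 6.45, 6.33 and 5.17 in *ntl3-1* at 29 ºC, against 122, 192 and 202 in WT at 45 ºC and 1.22, 1.68 and 2.14 in WT at 29 ºC. Its libraries parted at both temperatures, *ntl3-1* being higher at 29 ºC by 1.80 (adjusted p = 0.00246) and lower at 45 ºC by a difference of -0.96 that did not pass (adjusted p = 0.0828). The log2FC was 3.84 in *ntl3-1* and 6.59 in WT, an interaction of -2.76 (SE 0.33, limma adjusted p = 0.0086).

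A pair of WRKY genes, which encode DNA-binding factors best known from plant defence, was among the 12. OsWRKY77 (LOC_Os01g40260, on chromosome 1) had 7.06, 4.60 and 5.54 FPKM in *ntl3-1* at 45 ºC and 4.12, 3.65 and 5.20 in *ntl3-1* at 29 ºC, against 4.07, 3.60 and 4.44 in WT at 45 ºC and 0.157, 0.206 and 0.609 in WT at 29 ºC. WT at 29 ºC lay apart below the other 3 groups, so the up-regulation of WT (log2FC 3.43) had no counterpart in *ntl3-1* (0.39), an interaction of -3.04 (SE 0.48, limma adjusted p = 0.0382). LOC_Os03g21710, on chromosome 3 and annotated as a WRKY45 factor, reversed its response. It had 1.49, 0.953 and 0.893 FPKM in *ntl3-1* at 45 ºC and 3.51, 1.64 and 2.71 in *ntl3-1* at 29 ºC, against 0.698, 0.821 and 0.620 in WT at 45 ºC and 0.102, 0.134 and 0.123 in WT at 29 ºC. Heat stress lowered it in *ntl3-1* (log2FC -1.13) and raised it in WT (1.88), and yet *ntl3-1* was above WT in every library at both temperatures. Its interaction was -3.02 (SE 0.41, limma adjusted p = 0.0191), called in 5 of 12 fits without 1 library and at most 0.0754 in the rest. With a constant of 1 FPKM it shrank to -1.37 and lost its call (adjusted p = 0.076), and OsWRKY77 moved to -1.61 (0.0448). OsWRKY77 kept its call without WT replicate 3 at 29 ºC (adjusted p = 0.00454) and in none of the other 11 fits (up to 0.13).

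The gene nearest to the threshold on its outer side, among those of at least 1 FPKM, was also a WRKY gene. OsWRKY45 (LOC_Os05g25770, on chromosome 5) had 26.1, 39.5 and 36.0 FPKM in *ntl3-1* at 45 ºC and 47.2, 37.4 and 49.3 in *ntl3-1* at 29 ºC, against 21.8, 41.5 and 27.1 in WT at 45 ºC and 8.66, 9.05 and 11.8 in WT at 29 ºC. At 29 ºC it was 2.17 higher in *ntl3-1* on the log2 scale (limma adjusted p = 0.000754), the genotypes overlapped at 45 ºC, and its interaction of -1.98 had an adjusted p of 0.0533. The gene nearest on the inner side was the protein kinase gene LOC_Os11g44430, on chromosome 11 (adjusted p = 0.0499). It had 3.23, 2.56 and 3.32 FPKM in *ntl3-1* at 45 ºC and 5.75, 4.34 and 6.88 in *ntl3-1* at 29 ºC, against 3.70, 2.40 and 3.74 in WT at 45 ºC and 1.80, 1.26 and 1.43 in WT at 29 ºC. Its interaction was -1.93 (SE 0.33), the genotypes converged at 45 ºC, and the call was kept only without WT replicate 2 at 45 ºC (up to 0.162 in the other fits). Both genes show the same arrangement on either side of the threshold.

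**Figure D4:**
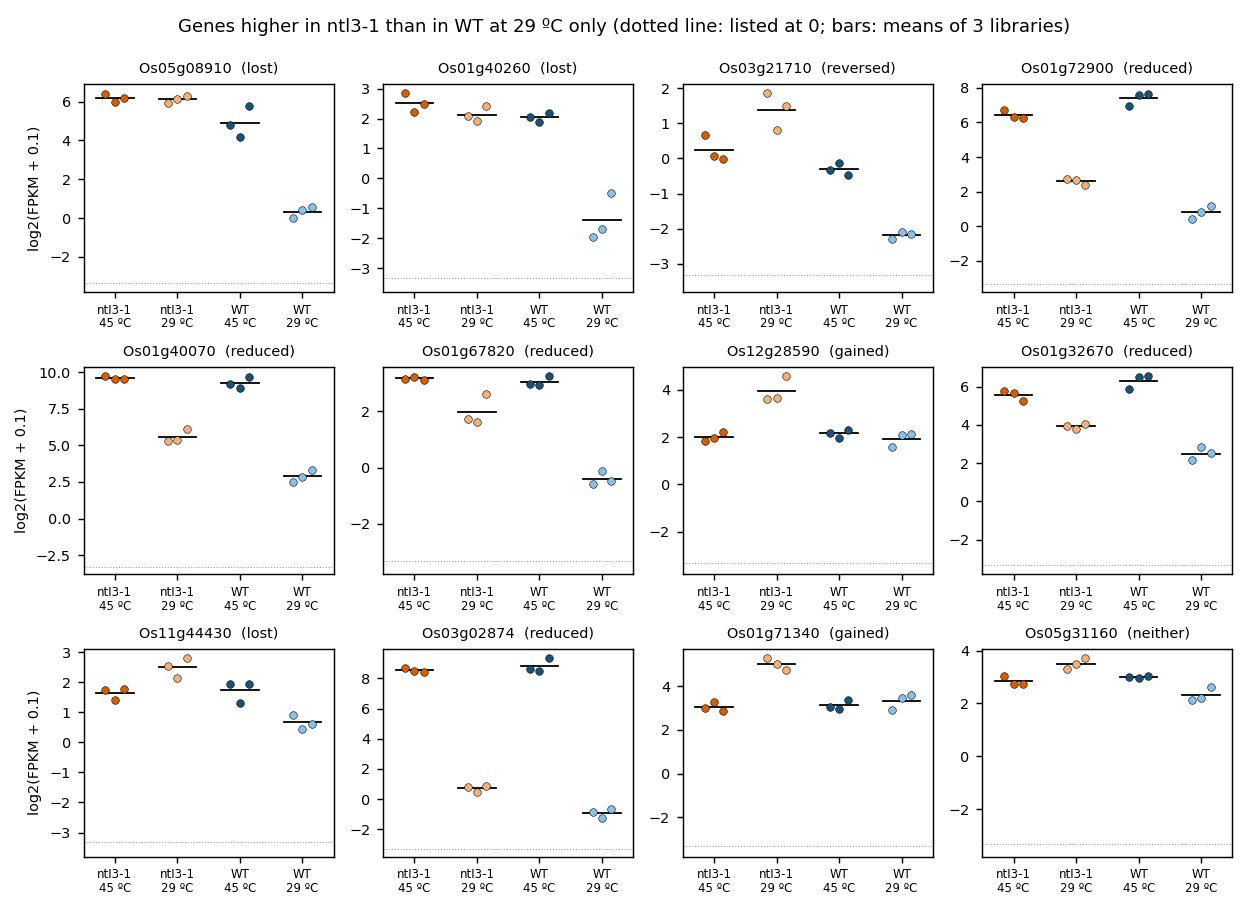
Level of the 12 genes that exceeded WT in *ntl3-1* at 29 ºC only, as log2(FPKM + 0.1) per library, with *ntl3-1* at 45 and 29 ºC on the left and WT at 45 and 29 ºC on the right of each panel. Points are single libraries, short bars are means of 3 libraries, the dotted line marks a gene listed at 0, and panels run from the most negative interaction (-4.50) to the least (-1.34). In all 12 panels the *ntl3-1* points at 29 ºC stand above the WT points at 29 ºC.

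A further 4 genes of this group were induced by heat stress in both genotypes and started from a higher level in *ntl3-1*. LOC_Os01g40070, on chromosome 1, had 849, 756 and 756 FPKM in *ntl3-1* at 45 ºC and 38.6, 41.7 and 70.4 in *ntl3-1* at 29 ºC, against 599, 488 and 814 in WT at 45 ºC and 5.68, 6.95 and 10.1 in WT at 29 ºC. The mean at 29 ºC in *ntl3-1* was 6.62 times that in WT, and at 45 ºC the libraries overlapped. LOC_Os03g02874, on chromosome 3, had 412, 361 and 347 FPKM in *ntl3-1* at 45 ºC and 1.65, 1.28 and 1.77 in *ntl3-1* at 29 ºC, against 389, 355 and 640 in WT at 45 ºC and 0.458, 0.315 and 0.533 in WT at 29 ºC. Heat stress raised its mean 239 times in *ntl3-1* and 1060 times in WT, its mean in *ntl3-1* being 3.60 times that in WT at 29 ºC and 0.81 times that in WT at 45 ºC. LOC_Os01g32670, on chromosome 1, had 54.0, 51.5 and 38.5 FPKM in *ntl3-1* at 45 ºC and 15.2, 13.8 and 16.6 in *ntl3-1* at 29 ºC, against 58.8, 88.8 and 93.5 in WT at 45 ºC and 4.37, 7.04 and 5.60 in WT at 29 ºC. It was thus higher in *ntl3-1* at 29 ºC (1.43, adjusted p = 0.0053) and, by libraries alone, lower at 45 ºC (-0.73, adjusted p = 0.149). LOC_Os01g67820, on chromosome 1, had 8.84, 9.29 and 8.65 FPKM in *ntl3-1* at 45 ºC and 3.23, 3 and 6.01 in *ntl3-1* at 29 ºC, against 7.85, 7.50 and 9.52 in WT at 45 ºC and 0.561, 0.821 and 0.624 in WT at 29 ºC. The interactions of these 4 genes were -2.35 (SE 0.38), -1.90 (SE 0.32), -2.16 (SE 0.30) and -2.27 (SE 0.34), with limma adjusted p of 0.0437, 0.0497, 0.0214 and 0.0314. LOC_Os03g02874 shrank to -1.09 (adjusted p = 0.225) with a constant of 1 FPKM and LOC_Os01g67820 to -1.46 (0.0842), and the call of LOC_Os01g40070 was lost (0.0566). In fits without 1 library LOC_Os03g02874 kept its call in none (0.0572 to 0.151), LOC_Os01g40070 in that without WT replicate 3 at 29 ºC (up to 0.145 elsewhere), LOC_Os01g67820 in those without *ntl3-1* replicate 2 or 3 at 29 ºC (up to 0.103) and LOC_Os01g32670 in 4 (up to 0.0758).

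The remaining 3 genes of the group stayed under the fold threshold in WT and fell in *ntl3-1*. LOC_Os12g28590, on chromosome 12, had 3.46, 3.75 and 4.51 FPKM in *ntl3-1* at 45 ºC and 12, 12.7 and 24.0 in *ntl3-1* at 29 ºC, against 4.46, 3.83 and 4.87 in WT at 45 ºC and 2.86, 4.18 and 4.31 in WT at 29 ºC. LOC_Os01g71340, on chromosome 1, had 7.87, 9.75 and 7.18 FPKM in *ntl3-1* at 45 ºC and 38.9, 32.7 and 27 in *ntl3-1* at 29 ºC, against 8.26, 7.77 and 10.2 in WT at 45 ºC and 7.36, 10.9 and 12.2 in WT at 29 ºC. In both, *ntl3-1* at 29 ºC was the 1 group that stood apart, and a down-regulation was gained (log2FC -1.96 and -1.97, against 0.22 and -0.20 in WT). LOC_Os05g31160, on chromosome 5, had 8.18, 6.51 and 6.47 FPKM in *ntl3-1* at 45 ºC and 9.67, 11.1 and 13 in *ntl3-1* at 29 ºC, against 7.97, 7.62 and 8.03 in WT at 45 ºC and 4.26, 4.45 and 6.13 in WT at 29 ºC. It fell by 0.67 in *ntl3-1* and rose by 0.68 in WT on the log2 scale, both under the fold threshold and both with an adjusted p of about 0.005 (0.00549 and 0.00477). The interactions were -2.19 (SE 0.36), -1.78 (SE 0.29) and -1.34 (SE 0.22), with limma adjusted p of 0.0487, 0.0455 and 0.0492. LOC_Os12g28590 and LOC_Os01g71340 kept the call in none of 12 fits without 1 library (0.0512 to 0.129), and LOC_Os05g31160 only in that without WT replicate 3 at 29 ºC (up to 0.162 elsewhere).

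At 45 ºC only, 7 genes of at least 1 FPKM were higher in *ntl3-1*, and no library overlapped there in any of the 7, against 14% of all genes tested in either direction. Again the choice of these genes by that difference favours a lack of overlap. *ntl3-1* up-regulated all 7 and WT 1 of them. LOC_Os08g39440, on chromosome 8, had 135, 110 and 96.1 FPKM in *ntl3-1* at 45 ºC and 16.5, 17.8 and 16.4 in *ntl3-1* at 29 ºC, against 21.1, 19.5 and 26.0 in WT at 45 ºC and 13.3, 15.7 and 12.4 in WT at 29 ºC. Its mean at 45 ºC was 5.11 times that of WT, and its interaction of 2.05 (SE 0.20, limma adjusted p = 0.00229) came with a WT response of 0.68 that stayed under the fold threshold. LOC_Os04g32030, on chromosome 4, had 459, 331 and 331 FPKM in *ntl3-1* at 45 ºC and 45.2, 39.5 and 38.8 in *ntl3-1* at 29 ºC, against 115, 106 and 130 in WT at 45 ºC and 48.1, 45.6 and 46.7 in WT at 29 ºC. It was induced in both genotypes and more in *ntl3-1*, with an interaction of 1.85 (SE 0.19, limma adjusted p = 0.0023). LOC_Os02g14720, on chromosome 2, had 14.0, 12.5 and 14.9 FPKM in *ntl3-1* at 45 ºC and 4.68, 4.26 and 4.20 in *ntl3-1* at 29 ºC, against 5.32, 5.39 and 5.21 in WT at 45 ºC and 4.07, 4.55 and 4.40 in WT at 29 ºC. Heat-stressed *ntl3-1* stood above the other 3 groups, an interaction of 1.34 (SE 0.14, limma adjusted p = 0.00237). All 3 genes were called in 12 of 12 fits without 1 library.

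LOC_Os02g06605, on chromosome 2, had 24.0, 33.4 and 14.6 FPKM in *ntl3-1* at 45 ºC and 5.19, 5.66 and 5.81 in *ntl3-1* at 29 ºC, against 3.57, 2.79 and 3.31 in WT at 45 ºC and 4.23, 3.80 and 3.27 in WT at 29 ºC. LOC_Os04g49680, on chromosome 4, had 57.7, 67.2 and 47.5 FPKM in *ntl3-1* at 45 ºC and 13.5, 12.3 and 12.8 in *ntl3-1* at 29 ºC, against 28.9, 38.9 and 32.0 in WT at 45 ºC and 17.6, 18.9 and 18.6 in WT at 29 ºC. In the first gene *ntl3-1* rose by a log2FC of 2.01 and WT had -0.22 (adjusted p = 0.498), and in the second *ntl3-1* rose by 2.13 and WT by 0.84. The interactions were 2.23 (SE 0.35, limma adjusted p = 0.0366) and 1.29 (SE 0.19, 0.0278). LOC_Os11g28184, on chromosome 11, is annotated as a transposon of the Mariner class, a mobile DNA element, and reversed its response. It had 1.92, 1.73 and 2.49 FPKM in *ntl3-1* at 45 ºC and 0.588, 0.472 and 0.572 in *ntl3-1* at 29 ºC, against 0.193, 0.488 and 0.712 in WT at 45 ºC and 1.11, 1.94 and 1.68 in WT at 29 ºC. Heat stress raised it in *ntl3-1* and lowered it in WT, so that the order of the genotypes turned round without overlap, an interaction of 3.38 (SE 0.50, limma adjusted p = 0.0314) that was 1.79 with a constant of 1 FPKM. Each of these 3 kept its call in 2 of 12 fits without 1 library, those without *ntl3-1* replicate 2 or 3 at 45 ºC for LOC_Os02g06605, *ntl3-1* replicate 3 or WT replicate 2 at 45 ºC for LOC_Os04g49680 and WT replicate 1 or 3 at 45 ºC for LOC_Os11g28184 (up to 0.125, 0.1 and 0.106 elsewhere).

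LOC_Os04g28360, on chromosome 4, had 7.96, 29 and 8.41 FPKM in *ntl3-1* at 45 ºC and listed at 0 in the other 9 libraries. It entered the test through the group where it is high, so its call is no support. Its fitted interaction of 6.98, which was 3.77 with a constant of 1 FPKM and 10.29 with 0.01 FPKM, carries no fold, since 3 groups are listed at 0, and the second library stood above the other 2.

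**Figure D5:**
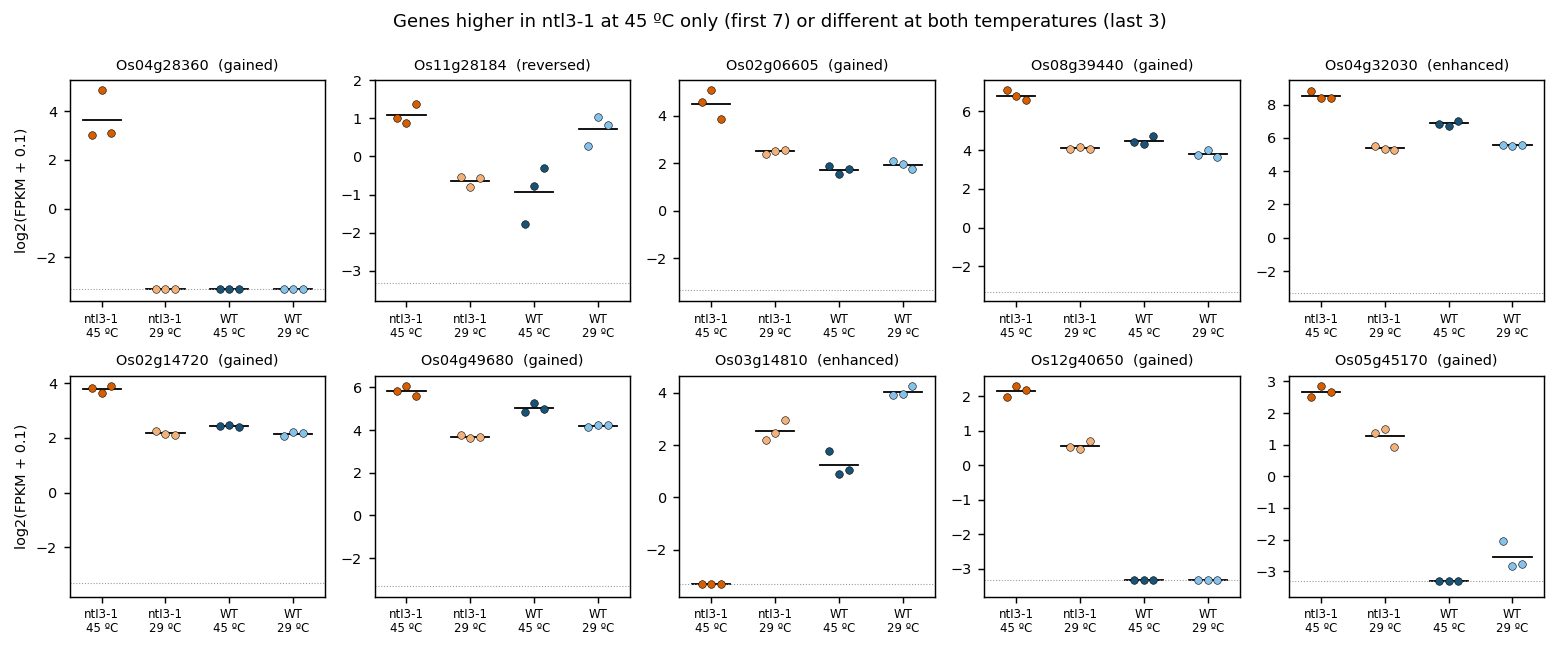
Level of the 7 genes that exceeded WT in *ntl3-1* at 45 ºC only (first 7 panels) and of the 3 genes that differed at both temperatures (last 3 panels), as log2(FPKM + 0.1) per library, with *ntl3-1* at 45 and 29 ºC on the left and WT at 45 and 29 ºC on the right of each panel. Points are single libraries, short bars are means of 3 libraries and the dotted line marks a gene listed at 0. In the first 7 panels the *ntl3-1* points at 45 ºC stand above the WT points at 45 ºC, and in the last 2 the WT points are at or near the dotted line.

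The genotypes differed at both temperatures in 3 genes of at least 1 FPKM, all of which are listed at 0 in some group. LOC_Os03g14810, on chromosome 3, is annotated as a MYB-like factor named after DIVARICATA, a regulator of flower shape in snapdragon. It was listed at 0 in all 3 *ntl3-1* libraries at 45 ºC and had 4.53, 5.39 and 7.74 FPKM in *ntl3-1* at 29 ºC, against 3.36, 1.74 and 1.97 in WT at 45 ºC and 15, 15.4 and 19.3 in WT at 29 ºC. The gene was down-regulated in both genotypes and lower in *ntl3-1* at both temperatures. Its fitted interaction of -3.06 (limma adjusted p = 0.00897) was called in 11 of 12 fits without 1 library, the exception being WT replicate 2 at 29 ºC (0.0511), but with a constant of 1 FPKM it shrank to -0.35 (adjusted p = 0.881). LOC_Os05g45170, on chromosome 5, had 5.57, 7.20 and 6.18 FPKM in *ntl3-1* at 45 ºC and 2.47, 2.75 and 1.81 in *ntl3-1* at 29 ºC, and was listed at 0 in all 3 WT libraries at 45 ºC, against 0.140, 0.0408 and 0.0453 in WT at 29 ºC. LOC_Os12g40650, on chromosome 12, had 3.86, 4.84 and 4.41 FPKM in *ntl3-1* at 45 ºC and 1.35, 1.27 and 1.51 in *ntl3-1* at 29 ºC, and was listed at 0 in all 6 WT libraries. Both were thus measured in *ntl3-1* and listed at or near 0 in WT at either temperature. Their interactions were 2.17 (limma adjusted p = 0.0492) and 1.59 (0.0351). That of LOC_Os12g40650 rests on a heat response inside *ntl3-1* alone, as WT has no spread. LOC_Os05g45170 had a log2FC of 1.41 in *ntl3-1* and -0.77 in WT, where a fall between values at or near 0 depends on the constant. With a constant of 0.01 FPKM LOC_Os05g45170 had 4.35 and LOC_Os12g40650 lost its call (adjusted p = 0.316), and with 1 FPKM LOC_Os05g45170 had 1.24. They were called in 0 and 1 of 12 fits without 1 library, the 1 being *ntl3-1* replicate 1 at 45 ºC (up to 0.139 and 0.126 elsewhere).

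A loss or gain was not always complete. Of the 9 genes that lost the response, 5 had an adjusted p of at most 0.05 in *ntl3-1* with a log2FC under 1 in size, 3 upward and 2 downward (LOC_Os11g02290 and LOC_Os11g44430). Of the 10 genes that gained one, 4 had an adjusted p of at most 0.05 in WT. The genes with the least response left in *ntl3-1* were LOC_Os01g53350 and LOC_Os05g08910, at a log2FC of 0.03 and 0.08, the first staying at the level of 29 ºC in heat stress and the second being high at both temperatures.

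By their locus names, 13 of the 37 genes (35.1%) lie on chromosome 1, which holds 14.3% of all genes of at least 1 FPKM, and OsNTL3 is on the same chromosome. They are 7 of the 15 genes lower at 45 ºC, 6 of the 12 higher at 29 ºC and 0 of the 7 higher at 45 ºC. By locus number, LOC_Os01g06460 and LOC_Os01g32670 are the nearest of the 13 on either side of OsNTL3 (LOC_Os01g15640). Among the 39 genes under 1 FPKM, 3 are on chromosome 1 (7.69%, against 14.4% of the genes tested at that level). These shares were noticed in the data and are given with no test.

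The 39 genes with a mean under 1 FPKM were mostly detected in some groups only. Of the 76 genes, 28 (36.8%) were above 0 in the 3 libraries of 1 group only, as were 86 (0.271%) of all genes tested, so that 32.6% of all such genes were called. They were 12 in *ntl3-1* at 45 ºC, 5 in *ntl3-1* at 29 ºC, 5 in WT at 45 ºC and 6 in WT at 29 ºC, and 27 of these 28 had a mean under 1 FPKM. In 8 of the 28 the 3 values agreed within 5% after dividing by what 1 read was worth in each library, so the libraries held the same number of reads, at group means of 0.082 to 0.285 FPKM. Examples are LOC_Os02g46760, with 0.0865, 0.0756 and 0.0839 FPKM in WT at 29 ºC, and LOC_Os04g01760, with 0.0880, 0.0855 and 0.0802 FPKM in *ntl3-1* at 45 ºC, both chosen after their values were seen. Of the 39 genes 1 was above 0 in all libraries. Others at this level have larger values, such as LOC_Os08g26720, with 1.23, 2.95 and 1.54 FPKM in *ntl3-1* at 29 ºC and 0 in the other 9 libraries, and LOC_Os03g33570, with 2.14, 1.81 and 2.27 FPKM in WT at 29 ºC and 0 elsewhere. With genes required to be above 0 in all 12 libraries, a choice made after seeing the data, 28 genes were called of 23710 tested, 22 with a smaller and 6 with a larger log2FC in *ntl3-1*, and all 28 were among the 37.

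The stress pathways around OsNTL3 were looked at as lists, which were drawn up with results of these data known. ER chaperones, folding enzymes and factors of the unfolded protein response number 16, of which OsbZIP74 alone passed the interaction test, against 0.24% of all genes tested. The interaction was negative in 15 of the 16, with a median of -0.24, against a median of -0.02 over all genes of at least 1 FPKM. The median standard error of a gene at that level was 0.24. Counted as negative are the edited gene OsNTL3 itself and LOC_Os02g02410 (BiP1) at -0.01. The share of negative values over all genes was not counted. *ntl3-1* and WT each up-regulated 13 of the 16, against 12.9% of all genes tested in *ntl3-1* and 13.2% in WT. OsbZIP17 (LOC_Os05g34050) and OsbZIP16 (LOC_Os07g44950), a further pair of bZIP factors on the list, had interactions of -0.23 (95% interval -0.65 to 0.20) and -0.45 (-0.99 to 0.09), and neither passed (limma adjusted p = 0.893 and 0.753). OsNTL3 itself had -0.52 (95% interval -1.04 to 0.00, limma adjusted p = 0.656) and no *ntl3-1* library overlapped WT at either temperature, its difference being -1.19 at 45 ºC (adjusted p = 0.00439) and -0.67 at 29 ºC, which did not pass (0.0663). The genes measured by qRT-PCR were chosen on these libraries and are no independent evidence of a direction. Of the 12, OsbZIP74 alone passed the interaction test, against 0.24% of all genes tested, 11 had negative values, and the median was -0.58. Several of the 12, OsbZIP74 and BiP1 among them, are also among the 16, so these lists are not separate.

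Heat shock proteins of the cytosol and organelles are chaperones that hold or refold damaged proteins. Both genotypes up-regulated all 15 on the list (12.9% and 13.2% of all genes tested in *ntl3-1* and WT). The interaction test was passed by 0 of them, against 0.24% of all genes tested, so 0 calls in 15 genes say nothing about them. The interaction was negative in 11 of the 15 genes, with a median of -1.13 (lowest adjusted p 0.47, limma). Their median difference between *ntl3-1* and WT was 0.05 at 45 ºC and 1.20 at 29 ºC. LOC_Os01g04370, the most negative at -1.94 (95% interval -3.91 to 0.03), had 45100, 38200 and 25400 FPKM in *ntl3-1* at 45 ºC and 62.3, 6.48 and 13.5 in *ntl3-1* at 29 ºC, against 32900, 41200 and 48500 in WT at 45 ºC and 4.76, 5.25 and 5.62 in WT at 29 ºC. The first *ntl3-1* library at 29 ºC stood far above the other 2. LOC_Os03g14180, an HSP20 gene, had the same pattern with 30.2, 2.75 and 7.58 FPKM in *ntl3-1* at 29 ºC, against 2.56, 2.10 and 2.94 in WT at 29 ºC. In 5 of the 15 genes every *ntl3-1* library exceeded every WT library at 29 ºC, against 13.1% of all genes tested. The part of that 1 library in the list's median was not tested.

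Heat shock factors (21 genes), enzymes that scavenge reactive oxygen (16) and stress-responsive NAC factors (8) gave 0 interaction calls each, with medians of -0.09, -0.11 and -0.38 and 11, 11 and 6 negative values. Of all genes tested 0.24% were called, so 0 calls in lists of this size say nothing about their members. The median over all genes of at least 1 FPKM was -0.02. The lowest adjusted p in each list was 0.491, 0.811 and 0.228 (limma). The last belongs to LOC_Os07g12340, a NAC factor, which had 27.5, 30.4 and 32.7 FPKM in *ntl3-1* at 45 ºC and 35.6, 34.4 and 49.2 in *ntl3-1* at 29 ºC, against 18.3, 27 and 30.2 in WT at 45 ºC and 7.89, 9.11 and 16.9 in WT at 29 ºC. At 29 ºC it was 1.87 higher in *ntl3-1* on the log2 scale (limma adjusted p = 0.00502) and its interaction of -1.58 (95% interval -2.44 to -0.71) did not pass over all genes tested. The 8 shoot and 7 root markers gave 0 calls, with medians of -0.11 and -0.26.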

How the data were processed

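Whole-seedling RNA of 4 groups with 3 libraries each was sequenced on the Illumina platform. By the study's methods, the authors trimmed reads with SeqPrep and Sickle, aligned them with TopHat to the MSU rice genome, quantified genes with RSEM and tested them with edgeR. The deposited FPKM table, whose header has the form that Cuffnorm writes, was used as it stands, and comparison columns of the authors were not used. The submitters' processing notes also name Bowtie 0.12.2 and a mouse genome build, which cannot be the genome used for rice. FPKM keep no counts, so a count test was not possible.

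Values were taken as log2(FPKM + 0.1), for 31681 of 55986 genes above 0 in at least 3 libraries, and 19165 genes were at 0 in all. limma 3.58.1 (R 4.3.3) fitted 1 mean per group to all 12 libraries, with 8 residual degrees of freedom and a variance trend, and p-values were adjusted by Benjamini-Hochberg over all genes tested. Standard errors (SE) and 95% intervals come from this fit. The procedure was tested on simulated data with normal spread in every group and interactions planted in genes over 1 FPKM. That setting does not cover groups listed at 0 without spread. The constant understates changes of genes with low values. Classes of response and of temperature follow the calls at an adjusted p of 0.05.

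Genes were named by a rule, up to 8 of the largest interactions among those of at least 1 FPKM that lost, gained or reversed their response, up to 4 of those reduced, enhanced or in neither class, and OsNTL3, OsbZIP74 and list members that passed. It gave 28 genes, OsNTL3 among them. The other 10 of the 37, and LOC_Os01g43720, the near-threshold gene and the list examples that did not pass, were named after their values were seen. Lists were genes measured by qRT-PCR, ER folding, heat shock proteins, heat shock factors, reactive oxygen scavenging, NAC factors and markers of shoot and root. Members and lists were chosen with earlier results of these data known. Roles come from the study's annotation. Alternatives were other constants, filters, scalings, variance models and thresholds, a replicate block and leaving out each library.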

Additional observations from a re-analysis of the deposited data

Results flagged for a closer look

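The heat response differed between *ntl3-1* and WT, by the interaction test itself (limma with Benjamini-Hochberg adjustment), in 47 genes with a smaller and 29 genes with a larger log2FC in *ntl3-1*. These counts include 28 genes above 0 in 1 group only, whose calls are no support. Without them 37 genes had a smaller and 11 a larger log2FC in *ntl3-1*. Some of these are listed at 0 in every library of more than 1 group, and the same limit holds for them. The values below are interactions on the log2 scale of genes described in the report.

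Among genes lower in *ntl3-1* at 45 ºC only, the interaction was -5.47 for LOC_Os01g68640, -5.24 for LOC_Os01g43750, -3.44 for LOC_Os11g02290, -3.27 for LOC_Os01g43720, -2.47 for LOC_Os01g53350, -2.1 for LOC_Os02g38000, -2.04 for LOC_Os03g53070 and -1.83 for LOC_Os01g58620. It was -1.53 for LOC_Os02g39930, -1.35 for LOC_Os06g19620, -1.15 for LOC_Os01g65986, -1.14 for LOC_Os01g65310, -1.13 for LOC_Os05g44310, -0.98 for OsbZIP74, -0.97 for LOC_Os03g48260 and -0.87 for LOC_Os01g06460.

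Among genes higher in *ntl3-1* at 29 ºC only, it was -4.5 for LOC_Os05g08910, -3.04 for OsWRKY77, -3.02 for LOC_Os03g21710, -2.76 for LOC_Os01g72900, -2.35 for LOC_Os01g40070, -2.27 for LOC_Os01g67820, -2.19 for LOC_Os12g28590, -2.16 for LOC_Os01g32670, -1.93 for LOC_Os11g44430, -1.9 for LOC_Os03g02874, -1.78 for LOC_Os01g71340 and -1.34 for LOC_Os05g31160.

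Among genes higher in *ntl3-1* at 45 ºC only, it was 6.98 for LOC_Os04g28360, which is above 0 in that group only and whose value is a description, 3.38 for LOC_Os11g28184, 2.23 for LOC_Os02g06605, 2.05 for LOC_Os08g39440, 1.85 for LOC_Os04g32030, 1.34 for LOC_Os02g14720 and 1.29 for LOC_Os04g49680. Where the genotypes differed at both temperatures, it was -3.06 for LOC_Os03g14810, 2.17 for LOC_Os05g45170 and 1.59 for LOC_Os12g40650.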

How the results depend on the processing

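The counts depend on single libraries. Leaving out 1 library gave 12 (without *ntl3-1* replicate 3 at 29 ºC) to 39 (without WT replicate 1 at 45 ºC) genes with a smaller and 9 to 22 with a larger log2FC in *ntl3-1*, of which 6 to 18 lost, 9 to 22 gained and 1 to 5 reversed the response, and 16 to 36 differed at 45 ºC only and 6 to 22 at 29 ºC only. Between 22 and 42 of the 76 genes were called in each of these fits, and 10 of the 37 genes of at least 1 FPKM in every one that could test them, LOC_Os04g28360 among them, which is above 0 in 1 group only.

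With a constant of 1 FPKM, 12 genes lost, 18 gained and 0 reversed the response, and 46 of the 65 genes called were among the 76. A filter of 1 FPKM in at least 3 libraries left 25 genes, all among the 76: 17 smaller and 8 larger, 6 lost, 7 gained and 3 reversed, 17 at 45 ºC only and 7 at 29 ºC only. An adjusted p of at most 0.01 left 24: 12 smaller and 12 larger, 7 lost, 12 gained and 1 reversed, 15 at 45 ºC only and 9 at 29 ºC only. Of these 24 genes 10 had a mean of at least 1 FPKM. Most of the 24 are above 0 in 1 group only, such as LOC_Os08g26720 and LOC_Os03g33570, and their calls are no support. The directions and classes of the 24 are therefore a description and no result of the stricter threshold. Genes above 0 in all libraries, a choice made after seeing the data, gave 22 smaller and 6 larger, 8 lost, 6 gained and 3 reversed, 17 at 45 ºC only and 10 at 29 ºC only. The cause of these shifts was not tested, beyond fewer genes or libraries entering.

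The replicate numbers did not pair the libraries: 0 of 18 same-number pairs had a correlation of deviations over 0.1. With a replicate block 50 genes were called, 42 of them among the 76, with 18 larger, 17 gained, 3 reversed and 24 at 45 ºC only. For the genes named, 577 of 964 values under alternatives kept their direction and call, 387 kept their direction only and 0 reversed. Quantile normalization moved the median heat response to -0.15 in *ntl3-1* and -0.16 in WT, and the median interaction to 0.01. With 3 libraries a group and no counts, precision is that of the spread between libraries.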
